A study of Lathyrus oleraceus with 4 samples.

Results

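A set of 4 probes of a garden pea oligonucleotide array is described here, for transcripts annotated with functions in the shoot apical meristem (SAM). S0179 is annotated as protodermal factor 1 and S0080 as an indole-3-acetic acid (IAA) amido synthetase, DWARF IN LIGHT 1. S0591 is annotated as inflorescence meristem receptor-like kinase 2 and C0250 as the F-box protein STAMINA PISTILLOIDA. They are 4 of the 2234 probes of the array that are not blank. They were chosen by name from transcripts whose ratio of SAM to non-meristem (NM) signal was high on these same arrays. Their SAM/NM ratios are therefore given as a description, without a test.

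The garden pea (Lathyrus oleraceus, earlier Pisum sativum) was of the cultivar Torsdag and was grown in a greenhouse for 10 days. SAM RNA came from many apices, dissected without leaf primordia and pooled for each extraction. NM RNA came from primary stem, primary root and mature leaf, so a ratio sets the SAM against a mixture of organs and not against any one of them. No mutant and no treatment was involved. Each of the 4 arrays carried both tissues of 1 independent collection, and the study's methods describe them as sectors of a chip. SAM was in Cy3 on arrays 1 and 3 and in Cy5 on arrays 2 and 4.

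In the deposited intensities the channels have numbers but no dye names. Channel 1 was read as Cy5, and every direction below rests on that reading, because the reverse reading would turn every sign. The clone names carry no annotation in the deposited tables. The names of the 4 transcripts come from pairing clones with the listed transcripts through values fitted on these same arrays, so the pairing is no independent evidence for a ratio.

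The SAM is the dome of dividing cells at the shoot tip that renews itself and sets aside cells for leaves and stem. Its outermost cell layer, the L1, gives rise to the epidermis, and in Arabidopsis PROTODERMAL FACTOR 1 encodes a proline-rich protein whose transcript marks this layer. Auxin maxima on the flanks of the dome position new organs. Amido synthetases of the GH3 family, to which Arabidopsis DWARF IN LIGHT 1 belongs, join IAA to amino acids and so lower the pool of free auxin. Receptor-like kinases carry signals from the cell surface, and INFLORESCENCE MERISTEM RECEPTOR-LIKE KINASE 2 is an Arabidopsis member of that class. F-box proteins choose the targets of a ubiquitin ligase. STAMINA PISTILLOIDA is the pea counterpart of UNUSUAL FLORAL ORGANS of Arabidopsis and acts in flower, inflorescence and leaf development.

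Across the arrays, the median intensity lay between 170.2 and 792 per array and channel, and the median of the 6 blank spots between 43.8 and 157. All probes were brighter than every blank measured beside them. The values of array 1 were of another kind than those of the other arrays, since 3.02% of them were multiples of 0.5 and on arrays 2, 3 and 4 each value was. The part of this difference in the results was not tested. Without array 1 the mean log2 SAM/NM ratio was 1.504 for S0080, 0.84 for S0179, 0.83 for C0250 and 0.54 for S0591. Pairs of arrays had Pearson correlations of their normalized log2 ratios between 0.681 and 0.886, taken across probes, and the pairs of like dye orientation had the 2 highest values. Probes are not independent replicates, and all 4 arrays share the same probe set. Of 9 probes for histones, proliferating cell nuclear antigen and cyclins, which serve here as markers of dividing cells, 9 were called higher, and their median log2 SAM/NM ratio was 1.75. Of 9 probes for photosynthesis in mature leaf, 9 were called lower, and their median was -2.58. Both lists hold transcripts that the study had selected on these arrays, so they describe the samples and are no independent check of the dissection.

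The deposited signal of S0080 was 1085 from SAM and 268 from NM RNA on array 1, and 458.5 from SAM and 386 from NM RNA on array 2. It was 1639 from SAM and 304 from NM RNA on array 3, and 2473 from SAM and 427 from NM RNA on array 4. SAM gave the brighter signal on all 4 arrays, and on array 2 the signals of the tissues lay closest together. Relative to the median blank of the same array and channel, the SAM signal was 10.5 to 19.4 times and the NM signal 3.23 to 6.04 times as bright.

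S0179 had 561 from SAM and 150.1 from NM RNA on array 1, and 233.5 from SAM and 374 from NM RNA on array 2. On array 3 it had 1008.5 from SAM and 252 from NM RNA, and on array 4 1189.5 from SAM and 410.0 from NM RNA. Before normalization, then, SAM was the dimmer channel on array 2 and the brighter channel on the other 3 arrays. The SAM signal was 5.34 to 11.9 times and the NM signal 2.67 to 5.52 times the median blank.

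C0250 had 943 from SAM and 371 from NM RNA on array 1, 496.5 from SAM and 570.0 from NM RNA on array 2, 1396 from SAM and 431 from NM RNA on array 3, and 2072.5 from SAM and 574.5 from NM RNA on array 4. Here too SAM was dimmer on array 2 only. The signals were 9.70 to 16.5 times the median blank for SAM and 4.57 to 8.36 times for NM.

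S0591 had 388 from SAM and 169 from NM RNA on array 1, 164 from SAM and 300.5 from NM RNA on array 2, 698 from SAM and 278 from NM RNA on array 3, and 805 from SAM and 309.5 from NM RNA on array 4. It lay nearer to the blanks than the other 3 probes did on the SAM side, at 3.75 to 8.26 times their median, with 2.95 to 4.17 times for NM. On array 1 the SAM signal was 3.99 times and the NM signal 3.82 times the median blank. On array 2 the SAM signal was 3.75 times and the NM signal 3.83 times the median blank. The tissues lay close together by this measure on both of these arrays, and no order of them is read from it. The spread of the blanks was not taken into account. S0179 on array 2, at 5.34 for SAM and 4.76 for NM, and C0250 on array 1, at 9.70 and 8.36, also had the tissues closer together than on their other arrays.

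**Figure D1:**
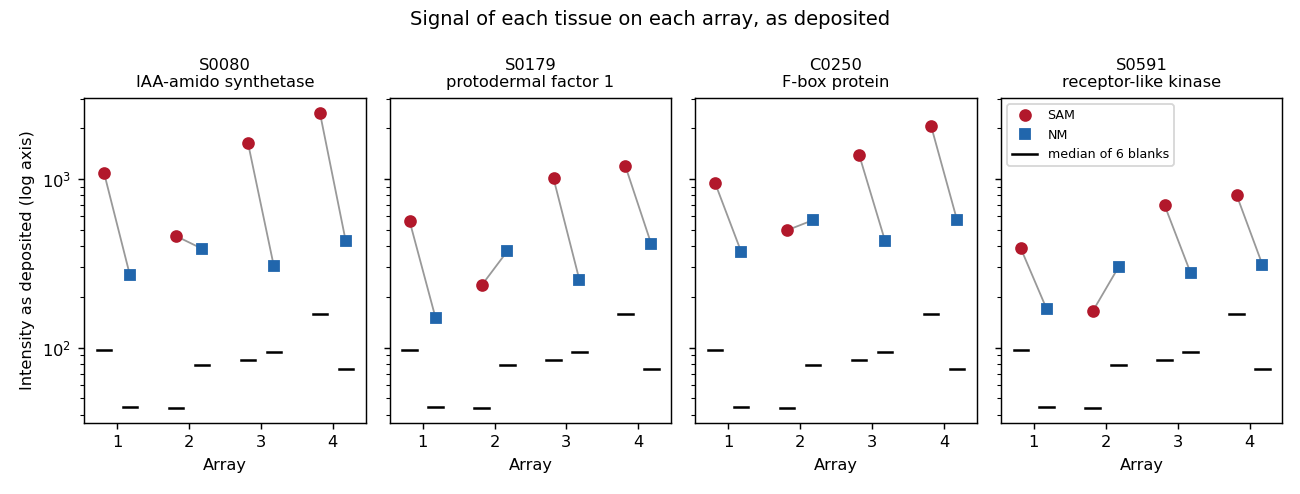
Intensity as deposited (log axis) of SAM (red circles, left of each pair) and NM (blue squares, right) for the 4 probes on arrays 1 to 4, with the median of the 6 blanks of the same array and channel as a black bar. SAM was brighter on arrays 1, 3 and 4 for all 4 probes, and on array 2 for S0080 alone.

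Array 2 as a whole ran in favour of NM before normalization. Its median ratio of SAM to NM signal over all probes was 0.442, whereas it was 1.73 on array 1, 1.56 on array 3 and 1.82 on array 4. Divided by the median ratio of its own array, each of the 16 values of the 4 probes lay above 1. The quotients of S0080 were 2.35, 2.68, 3.46 and 3.19 on arrays 1 to 4, and those of S0591 were 1.33, 1.23, 1.61 and 1.43. The 3 ratios that lay below 1 before this division, all on array 2, thus lay above the array's own centre. On array 2 the direction of S0179, C0250 and S0591 rests on that correction.

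After normalization with a robust spline within each array, the log2 SAM/NM ratios were above 0 in 16 of 16 cases. Of all 2234 probes, 17.9% were above 0 and 16.8% below 0 on all 4 arrays, and 9.76% were called higher in the SAM, which required a limma adjusted p under 0.05 and a ratio above 1.3. All 4 probes met both criteria, but they had been picked for this contrast, and nothing follows from that count. In these bulk samples, more cells with a transcript and more of it per cell cannot be told apart.

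S0080, the IAA-amido synthetase, had the highest ratio of the 4. Its log2 ratio was 1.56 on array 1, 1.24 on array 2, 1.71 on array 3 and 1.56 on array 4, a mean of 1.52 ± 0.20 (SD, n = 4 arrays) or 2.86-fold. The values lay close together apart from array 2. By its mean it ranked 38 among the 2234 probes and 13 among the 296 probes of the subtracted library, which had been enriched for SAM transcripts by removing those shared with NM. On single arrays its rank among all probes ran from 22 to 42.

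S0179, the transcript of the outer cell layer in Arabidopsis, had log2 ratios of 1.06, 0.50, 1.28 and 0.75 on arrays 1 to 4, with a mean of 0.89 ± 0.34 (SD, n = 4 arrays), or 1.86-fold. It varied most of the 4. Its SD exceeded that of 81.8% of all probes, whose median SD was 0.20. The 2 arrays with SAM in Cy3 gave the 2 higher values. It ranked 95 among all probes and 33 in the subtracted library.

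C0250, the F-box transcript, had 0.93, 0.67, 0.98 and 0.85 on arrays 1 to 4. With a mean of 0.86 ± 0.14 (SD, n = 4 arrays), or 1.81-fold, it had nearly the mean of S0179 but the smallest SD of the 4 probes, and 25.5% of all probes had a smaller one. It came from the standard, neither normalized nor subtracted, library, where it ranked 44 of 290, and it ranked 101 among all probes.

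S0591, the receptor-like kinase transcript, had the smallest ratio, at 0.27 on array 1, 0.41 on array 2, 0.60 on array 3 and 0.61 on array 4. The mean was 0.47 ± 0.17 (SD, n = 4 arrays), or 1.39-fold. Array 1, and not array 2, was its lowest. It ranked 200 among all probes and 63 in the subtracted library. It is the only one of the 4 whose call was lost on leaving out an array. Without array 4 its mean log2 ratio was 0.43 and 3 of the 4 probes were called.

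**Figure D2:**
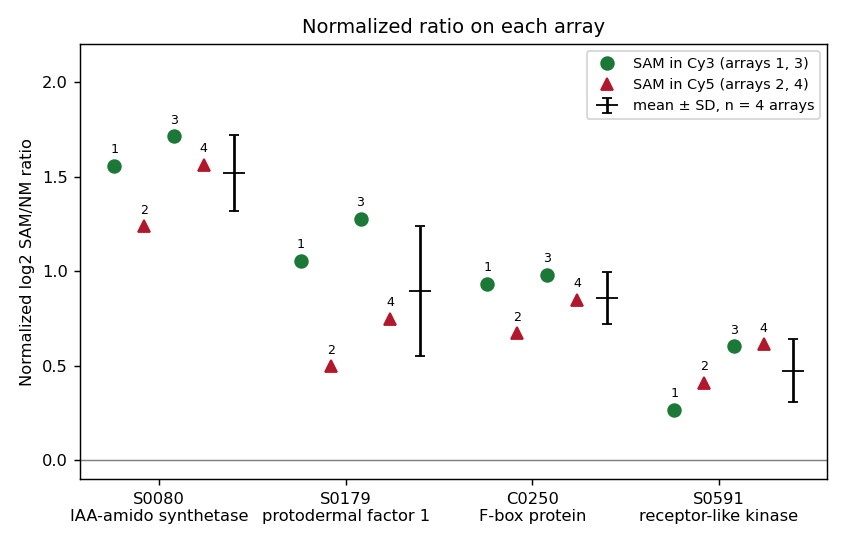
Normalized log2 SAM/NM ratio of the 4 probes on each array (numbers beside the points), with arrays of SAM in Cy3 as green circles, arrays of SAM in Cy5 as red triangles, and the mean ± SD (n = 4 arrays) at the right of each group. All 16 points lie above 0, from 0.27 for S0591 on array 1 to 1.71 for S0080 on array 3.

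Ordered by mean ratio, S0080 came first, then S0179, C0250 and S0591. S0080 was the highest of the 4 and S0591 the lowest on each array. Within arrays, S0080 exceeded C0250 by 0.66 ± 0.08 and S0179 minus S0080 was -0.62 ± 0.18 (log2, SD, n = 4 arrays each). The order of S0179 and C0250 was not settled. S0179 was higher on arrays 1 and 3 and C0250 on arrays 2 and 4, and the difference of S0179 minus C0250 was 0.04 ± 0.21 on the log2 scale (SD, n = 4 arrays), less than its spread. S0179 exceeded S0591 by 0.42 ± 0.36 on the log2 scale (SD, n = 4 arrays), with 0.09 as the smallest difference on an array, and S0591 minus C0250 was -0.39 ± 0.20. These differences set separate probes against each other, and they were not tested because the ratios had served to choose the probes.

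**Figure D3:**
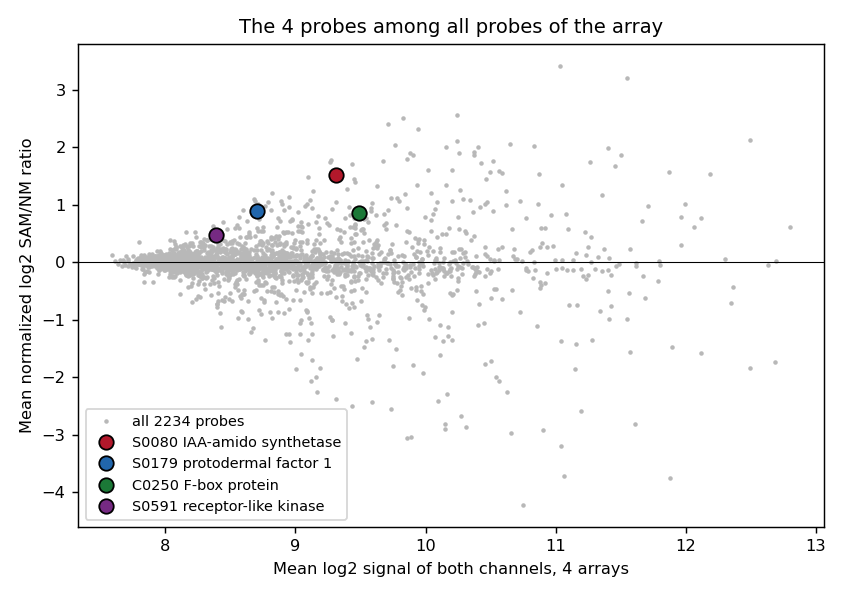
Mean normalized log2 SAM/NM ratio (y axis) against the mean log2 signal of both channels over the 4 arrays (x axis) for all 2234 probes in grey, with the 4 probes in colour. S0591, at 0.47, lies at the upper edge of the dense band of probes around 0, whereas S0080, at 1.52, stands clear of it.

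Arrays differed in how far ratios spread. Over all probes, the SD of the normalized log2 ratios was 0.53 on array 1, 0.50 on array 2, 0.67 on array 3 and 0.68 on array 4. The mean of the 4 probes followed part of this, with 0.95, 0.70, 1.14 and 0.94 on arrays 1 to 4. The markers of dividing cells had medians of 1.46, 2.25 and 1.67 on arrays 2 to 4 and a lower one on array 1, and the photosynthesis probes had medians of -2.28, -1.68, -2.92 and -3.40 on arrays 1 to 4. Their part in the differences between arrays was not tested. When the ratios were also scaled between arrays, array 2 was no longer the lowest for S0080 and C0250. S0080 then had 1.41 on array 2 and 1.299 on array 4, and C0250 had 0.77 on array 2 and 0.71 on array 4, whereas S0179 still had its lowest value, 0.57, on array 2.

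The dye orientation was balanced over the arrays, so a dye effect could be estimated beside the tissue. It was not independent of the choice of the probes. The study listed transcripts by adjusted p, and in a fit without the dye a large dye effect widens the spread behind that p. Probes with a large dye effect were thus less likely to be listed. The log2 ratio of S0179 averaged 1.17 with SAM in Cy3 and 0.62 with SAM in Cy5. This gave a dye effect, Cy5 over Cy3, of -0.27 (standard error 0.08) with an adjusted p of 0.140 in limma's test over all probes and an unadjusted p of 0.0154. The effect was -0.12 (standard error 0.08) for S0080, -0.10 (standard error 0.07) for C0250 and 0.04 (standard error 0.09) for S0591, with adjusted p-values of 0.440, 0.437 and 0.823 from limma. None of the 4 thus passed the threshold, which 0.224% of all probes, 5 of 2234, passed. At an unadjusted p under 0.05 in the same limma test there were 517 of the 2234 probes, S0179 among them. This is more than the share of 0.05 that would pass without any dye effect. The 5 probes past the adjusted threshold therefore do not show that dye effects were rare.

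On the chip the 4 probes lay apart from each other. S0179 was in column 50 and row 14, S0080 in column 16 and row 9, S0591 in column 35 and row 35, and C0250 in column 44 and row 5. For each, the 8 adjacent spots held other probes, and the median of their mean log2 ratios was -0.0084 around S0179, 0.04 around S0080, -0.13 around S0591 and -0.08 around C0250. None of the adjacent probes had a higher mean ratio than S0179, S0080 or S0591, and 1 had a higher one than C0250. By their mean ratio these 4 probes ranked 95, 38, 200 and 101 of 2234, so few probes at any position could exceed them. Of the 8 adjacent probes, 1 was called around S0179, 2 around S0080, 2 around S0591 and 1 around C0250, higher or lower. Their means reached 1.34 beside S0080 and -2.06 beside S0591. Around S0179 the medians of the adjacent spots were 0.25 on array 1, -0.25 on array 2, 0.03 on array 3 and -0.26 on array 4. Around C0250, whose own SD was the smallest of the 4, they were 0.24, -0.06, -0.06 and -0.20 on arrays 1 to 4. S0179 itself was also lower on arrays 2 and 4 than on arrays 1 and 3. Arrays 2 and 4 were also those with SAM in Cy5, so position and dye orientation cannot be told apart here. The part of position in the spread of S0179 was not tested.

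The probes with the most similar ratios over the 4 arrays were found by the Euclidean distance between the 4 normalized log2 ratios. Nearest to S0179 were S0855, without a database match, at 0.169, S1071, annotated as the chromatin remodelling factor DDM1, at 0.298, and N0681, a hypothetical protein, at 0.319. The median distance of all probes from S0179 was 1.94. S1071 had a mean log2 ratio of 0.95 ± 0.37 (SD, n = 4 arrays), with array 3 highest and array 2 lowest, as in S0179.

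Nearest to S0080 were S0242, without a database match, at 0.361 and the ribosomal protein transcripts C0239 (S15-like) at 0.453 and C0386 (S2) at 0.505. Nearest to C0250 were C0466, for ribosomal protein L10E, at 0.138, N1485, for a senescence-associated protein, at 0.236, and AY167671, for a DEAD box RNA helicase, at 0.274. Of the probes nearest to S0591, C0361 at 0.0895 and N0974 at 0.143 had no database match, and N0746 at 0.150 is not annotated in the sources used here. Over 4 arrays such likeness describes these hybridizations only.

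The 4 transcripts were set beside other annotated probes in 6 lists of 37 probes including the 4. The probes were sorted into these lists here by their annotation, and the study's own classes differ for some of them. The study had listed every one of them as differing between SAM and NM on these arrays, so the counts describe the lists and cannot be read against the background of 9.76% called higher and 7.34% called lower. In all, 20 of the 37 were called higher in the SAM, 13 lower, and 4 were not called because their ratio lay above the limit of 0.7. The median log2 ratio was 0.52, against -0.0036 over all probes.

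In the epidermal and cuticular list, 4 of 5 probes were called higher and 1 lower. Lipid transfer proteins are small secreted proteins that bind lipids and are often made in epidermal cells. Of the lipid transfer probes, C0336 had log2 ratios of 2.53, 1.76, 2.32 and 1.81 on arrays 1 to 4, a mean of 2.10 ± 0.38, and X67427 had a mean of 1.93 ± 0.70 (SD, n = 4 arrays each). Y14560, annotated as a non-specific lipid transfer protein, ran the other way with -1.57 ± 0.39 and values from -2.14 to -1.30. C0441, an oxidoreductase like HOTHEAD, which in Arabidopsis keeps floral organs from fusing, had 1.01 ± 0.16 (SD, n = 4 arrays). S0179, at 0.89, had the lowest mean of the 4 probes called higher in this list.

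Among 6 auxin-related probes, 3 were called higher, 2 lower and 1 was not called. S0080 had the highest ratio of the 6. S0309, auxin response factor 9, a transcription factor that binds auxin-responsive promoters, had 0.62 ± 0.20. C0050, for ribosomal protein L24, whose Arabidopsis counterpart affects auxin-dependent gynoecium patterning, had 1.09 ± 0.14 (SD, n = 4 arrays).

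The auxin-related probes called lower were AY065659 and AJ010945. AY065659, an ultraviolet-B-inducible auxin-related protein, had -3.72 ± 0.18, and AJ010945, isovaleryl-CoA dehydrogenase described as auxin-binding, had -0.61 ± 0.37 (SD, n = 4 arrays each). AF026531, for a putative IAA-related protein, had -0.49 ± 0.18 and a ratio of 0.714, just outside the limit. The auxin annotations thus fell on both sides, with the conjugating enzyme and the response factor on the SAM side.

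Of 6 probes for other hormones, 2 were called higher, 3 lower and 1 was not called. S0103, for a gibberellin-regulated protein, varied widely at 3.04, 1.01, 2.13 and 1.78 on arrays 1 to 4, with a mean of 1.99 ± 0.84 (SD, n = 4 arrays), and AF325121, for the brassinosteroid synthesis enzyme LKB, had 0.66 ± 0.42. Lower were AJ831475, for a His-Asp phosphotransfer protein, a class that passes the cytokinin signal to the nucleus, at -1.05 ± 0.13, N1460 (CPABA1) at -0.64 ± 0.28 and C0435, for ETHYLENE INSENSITIVE 3, the transcription factor of ethylene responses, at -0.56 ± 0.12 (SD, n = 4 arrays each). AB080194, for a nine-cis-epoxycarotenoid dioxygenase, a family of enzymes that includes the committed step of abscisic acid synthesis, was not called at -0.49 ± 0.11.

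Among 9 probes for receptors, kinases and signalling, 4 were called higher, 4 lower and 1 was not called. S0591 was the only probe annotated as a receptor kinase. It had the lowest mean of the 4 called higher, next to the cell cycle kinases S0826 at 0.60 ± 0.33 and N0918 (Cdc2) at 0.52 ± 0.27 and the guanine nucleotide regulatory protein C0186 at 0.61 ± 0.25 (SD, n = 4 arrays each). The ranges of all 4 over the arrays overlapped. Called lower were the phospholipase C probes Y15253 at -0.85 ± 0.21 and AF280748 at -0.66 ± 0.15, MAP kinase 3 (AF153061) at -0.66 ± 0.23 and the 14-3-3-like protein AJ238681 at -0.57 ± 0.27. AY883569, for a calcineurin B-like calcium sensor, was not called at -0.46 ± 0.10.

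Of 3 probes of the ubiquitin pathway, C0250 and C0387 were called higher and L81142 lower. C0387, for a ubiquitin extension protein, in which ubiquitin is fused to a ribosomal protein, had 1.18 ± 0.28, and L81142, for the ubiquitin gene PUB4, had -0.75 ± 0.15 (SD, n = 4 arrays each). C0250 was the one probe of the list for a part of a ubiquitin ligase.

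Of 8 probes for transcription factors and developmental regulators, 5 were called higher, 2 lower and 1 was not called. The co-activator KIWI, S0784, had 1.80 ± 0.57, with 1.21 on array 1 and 2.43 on array 4. The YABBY factor N1255, of a family that specifies the lower side of lateral organs in Arabidopsis, had 0.65 ± 0.37, and LATE FLOWERING (AY343326), a pea repressor of flowering, had 0.62 ± 0.26. S0260, for a Hap5 factor, had 0.63 ± 0.26 and S0750, annotated as a transcription factor, 0.72 ± 0.49 (SD, n = 4 arrays each). CONSTANS-LIKE a (AY830921) was lower at -1.21 ± 0.46 and the zinc finger probe AF160977 at -0.87 ± 0.28. C0088, for a B-box zinc finger protein, was not called at -0.48 ± 0.09.

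**Figure D4:**
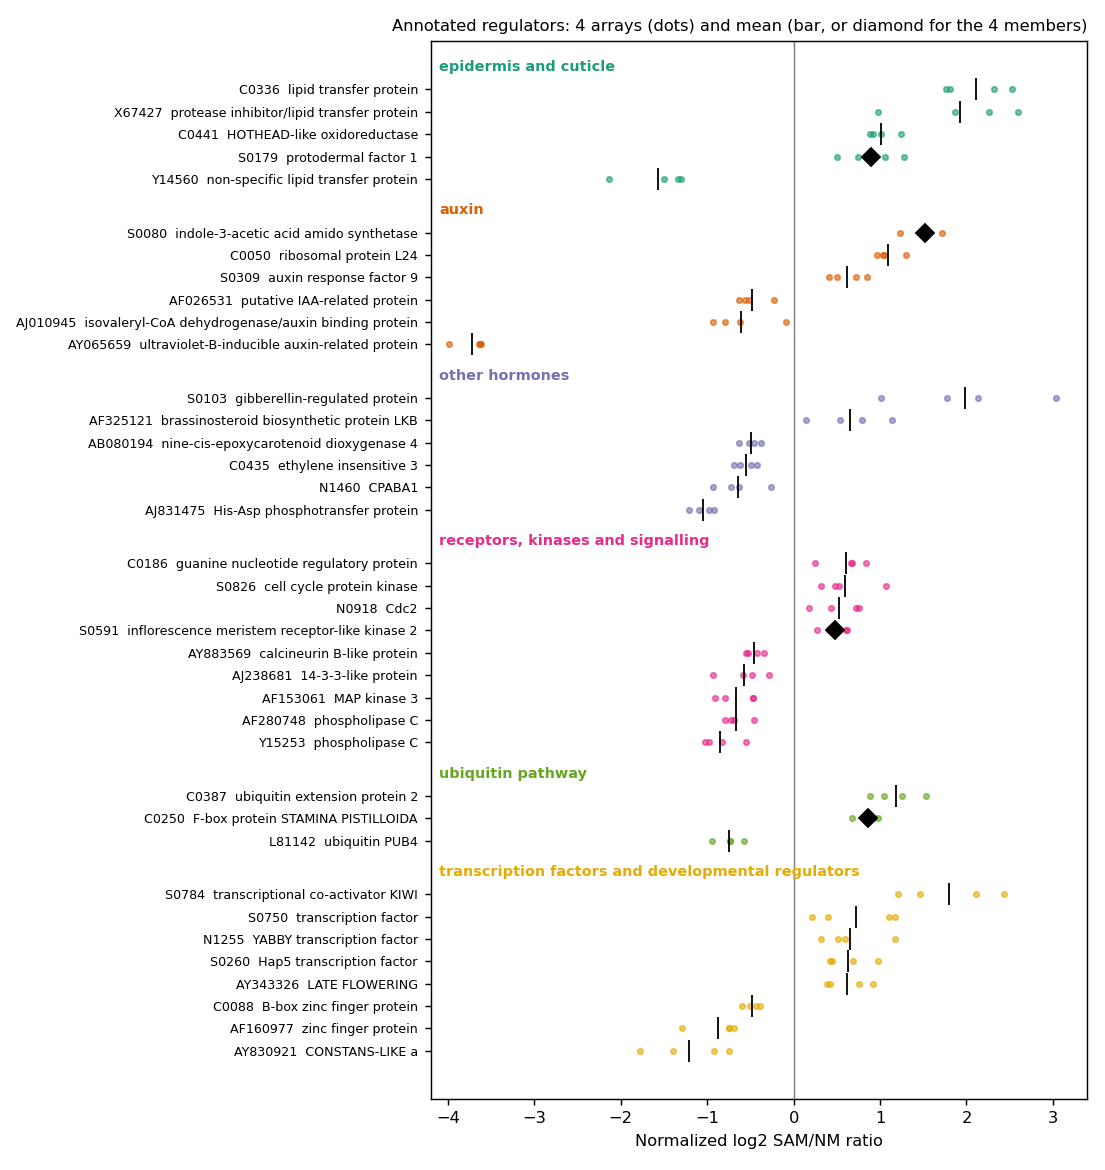
Normalized log2 SAM/NM ratio of the 37 annotated probes in 6 lists, with the 4 arrays as dots and the mean as a bar, or as a diamond for S0179, S0080, S0591 and C0250. No dot of any probe crosses 0, and each list holds probes on both sides of it. The study had listed all of these probes as differing between SAM and NM on these same arrays, which favours a constant sign. The constant signs therefore cannot be read against all 2234 probes. Of those, 17.9% were above 0 and 16.8% below 0 on all 4 arrays.

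The level of the ratios depended on the processing more than their order did. With the median of the blanks subtracted before the ratio was taken, the mean log2 ratio was 1.75 for S0080, 1.12 for S0179, 0.97 for C0250 and 0.62 for S0591. With no normalization within arrays the mean was 1.81 for S0080, 1.19 for S0179, 1.17 for C0250 and 0.76 for S0591, and S0080 was the 1 of the 4 probes called. S0080 kept the highest and S0591 the lowest mean under each of the 12 alternatives, and all 48 values were above 0. Leaving out an array could not have changed this, because the same held on every single array. The settings with the dye added and without the dimmest probes returned the same means. Only the remaining alternatives could have differed, and the probes had been chosen for ratios above 0. S0179 and C0250 changed places without array 3, with 0.77 for S0179 and 0.82 for C0250, and under no other alternative.

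**Figure D5:**
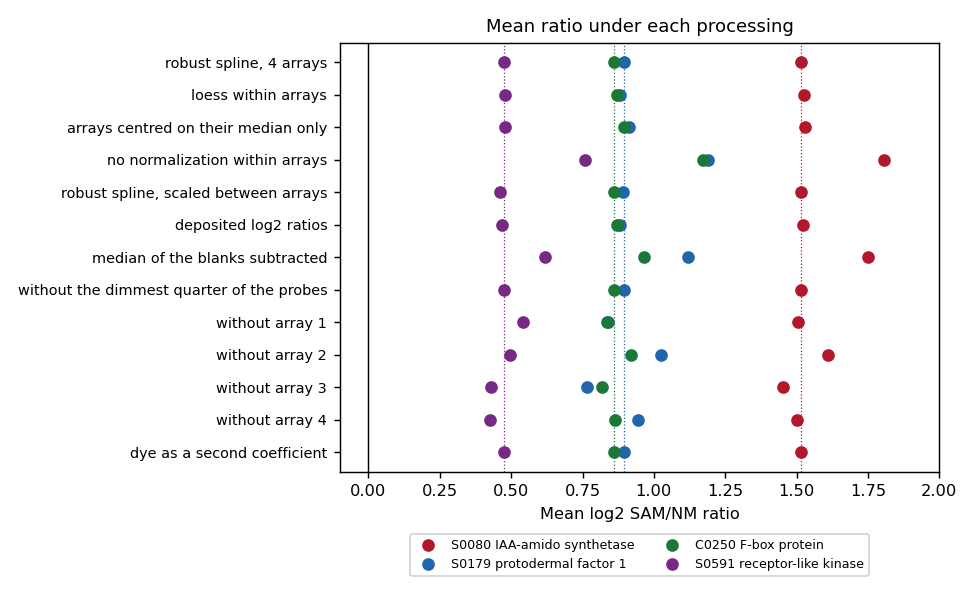
Mean log2 SAM/NM ratio of the 4 probes (colours) under the robust spline with all 4 arrays (top row, dotted lines) and under each of 12 alternatives. Blank subtraction and the lack of normalization moved the points to the right, and leaving out single arrays moved S0179 most, between 0.77 and 1.03.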

How the data were processed

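The authors scanned and quantified the arrays and deposited 1 intensity per spot and channel. How spots were summarised, and whether the values had been adjusted before deposit, is not given in the sources used here, and no background was subtracted here. A second deposited table gives log2 channel 1 over channel 2, which global loess and scaling between arrays return from the intensities to within 3.2e-08. The robust spline of the methods was applied here to 2234 probes, without blanks, and 1 coefficient per probe was fitted with limma 3.58.1 in R 4.3.3 (Benjamini-Hochberg over all probes; a call needed an adjusted p under 0.05 together with a ratio over 1.3 or under 0.7). A further fit added the dye. The unnumbered sample label was taken as array 1. Both tissues of an array come from 1 collection, which is their pairing.

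With the first channel as Cy5, 129 of the 129 GenBank-derived probes of the study's supplement lie on the side listed there, and 0 with the reverse reading. The sample labels list Cy3 first. Clones were paired with 230 listed accessions by ratio and adjusted p that limma gave on the deposited log2 ratios (summed relative difference at most 5.8e-06, and at least 3.2e-04 at the next best clone). The limma p-values set a coefficient against the spread between the 4 arrays, after limma had drawn that spread towards the spread of all probes. In the fit without the dye, this spread also holds any dye effect. The number of arrays limits the precision.

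Members and lists were chosen with earlier results of these data known. Named are the 4 probes, the annotated lists and the 3 nearest probes of each, and 1 listed probe is not reported here. The procedure was tested on simulated data with noise drawn independently for each probe and array. That test does not cover differences between collections that many probes share.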

Additional observations from a re-analysis of the deposited data

Results flagged for a closer look

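Of the 67 probes described, 3 had 1 array far from the other 3 by Dixon's criterion, which chance meets in about 1 of 20 groups. S0179, S0080, S0591 and C0250 were not among them. The auxin-related probe AY065659 had a log2 SAM/NM ratio of -3.99 on array 4, and -3.64 to -3.62 on the other arrays. The zinc finger probe AF160977 had -1.29 on array 3, and -0.75 to -0.69 on the others. The proliferating cell nuclear antigen probe AB008186, one of the markers of dividing cells, had 2.92 on array 3, and 1.46 to 1.67 on the others.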

How the results depend on the processing

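Of the 48 values of the 4 probes under the 12 alternatives, 44 moved by less than the SD over arrays. Much of this count was fixed beforehand. Leaving out 1 of 4 arrays cannot move a mean by as much as that SD. The settings with the dye added and without the dimmest probes returned the same means. Without normalization within arrays, the mean log2 ratio was 1.81 for S0080, 0.76 for S0591 and 1.17 for C0250, 1 of the 4 probes was called, 49 probes in all were called higher and 31 lower, 4 of the 33 other listed probes were called higher and 1 lower, and 0 probes showed a dye effect (limma). That setting also moved the median of all probes to 0.27. With the blanks subtracted S0080 had 1.75. With arrays only centred on their median, 128 probes were called higher, 9 of the 33 listed ones, and 0 had a dye effect. Dye effects passed for 2 probes with loess, 25 with scaling between arrays, 28 in the deposited log2 ratios and 1 without the dimmest probes, against 5. The dye effect of S0080 was 0.019, that of S0591 -0.069 and that of C0250 0.088 on centred arrays, and that of S0591 was -0.50 without normalization, all opposite in sign to the values above and none past the threshold. The adjusted p of the 4 probes lay between 0.0711 and 0.954 over these alternatives (limma). The cause of these shifts was not tested. With each array left out in turn, the mean lay between 0.77 and 1.03 for S0179, 1.45 and 1.61 for S0080, 0.43 and 0.54 for S0591 and 0.82 and 0.92 for C0250, 168 to 218 probes were called higher and 132 to 173 lower, and 3 to 4 of the 4 probes were called, 3 without array 4. The ratios pair SAM and NM of 1 collection on each array, so no further block was fitted.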
